A study of Homo sapiens with 42 samples.

Results

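The genes described here encode the cytokine TNF, the 5 subunits of the NF-kB transcription factor (NFKB1, NFKB2, REL, RELA and RELB), its inhibitors NFKBIA and NFKBIE, and the pathway genes TNFAIP3 and BIRC3. They were chosen by name: 10 of the 60240 genes in the deposited table carry these names, and all 10 passed the filter on low values. RNA was sequenced from human acute myeloid leukaemia cell lines after decitabine, a cytidine analogue that is built into DNA and traps DNA methyltransferases, or after its solvent DMSO. The lines are SKM-1, OCI-AML3, MOLM-14, MOLM-13 and KG-1, each with 3 decitabine and 3 DMSO libraries. Decitabine was given at 100 nM on 3 consecutive days, the last on day 2, and RNA was taken at 72 h. The labels give every line as wild type, and nothing in them says that replicates came from separate cultures, so each p-value reflects only how far these libraries scatter, which can be technical. Each line is a cultured leukaemia, and a line counts as at most 1 biological source. MOLM-13 and MOLM-14 are sister lines, so they are not independent sources. The labelled OCI-AML2 and THP-1 libraries were not analysed here.

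As background, TNF binds its receptors and starts a chain of adaptors, ubiquitin ligases and kinases that ends with the IkB kinases marking IkB proteins for destruction. NF-kB dimers, until then held in the cytoplasm by IkB proteins, enter the nucleus and bind kappaB sites. Several genes they switch on act back on the pathway: NFKBIA (IkB-alpha) pulls NF-kB out of the nucleus, TNFAIP3 (A20) edits ubiquitin chains and ends receptor signalling, and BIRC3 (cIAP2) is a ubiquitin ligase at the TNF receptor complex. A second, slower branch, called noncanonical, works through processing of the NFKB2 precursor and its partner RELB. In monocytes and macrophages TNF is a major inflammatory product.

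The sequences just upstream of these genes show where the letters of a kappaB site stand. RefSeq (GRCh38.p14) gave 12 windows of 250 bases before an annotated start, for 8 of the 10 genes. Of the 12 windows, 7, from 6 genes, held at least 1 match on either strand to the 10-letter kappaB consensus, against 5.21% of 35116 windows of the same length over all genes. The looser pattern GGGNNNNNCC was in 11 of the 12 windows, against 54.4% of all windows. A match describes letters only and is no evidence of binding. The windows of TNF, NFKB2, BIRC3, NFKBIA and TNFAIP3 are printed because these are the cytokine, the most widely called gene and the inducible regulators. They read 5′ to 3′ on the gene's strand, and capitals mark consensus matches, which appear as the reverse complement where the match is on the opposite strand.

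TNF, chr6:31575315-31575564, plus strand: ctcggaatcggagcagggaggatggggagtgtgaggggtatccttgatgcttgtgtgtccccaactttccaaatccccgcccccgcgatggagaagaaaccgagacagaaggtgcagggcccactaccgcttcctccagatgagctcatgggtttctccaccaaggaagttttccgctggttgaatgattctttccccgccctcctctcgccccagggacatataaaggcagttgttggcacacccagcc

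NFKB2, second annotated start, chr10:102394328-102394577, plus strand: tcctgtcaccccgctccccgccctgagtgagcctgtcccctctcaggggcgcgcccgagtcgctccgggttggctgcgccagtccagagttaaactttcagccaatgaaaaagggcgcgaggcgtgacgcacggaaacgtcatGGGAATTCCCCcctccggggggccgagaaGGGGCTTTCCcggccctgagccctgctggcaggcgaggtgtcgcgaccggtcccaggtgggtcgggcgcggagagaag

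BIRC3, chr11:102317234-102317483, plus strand: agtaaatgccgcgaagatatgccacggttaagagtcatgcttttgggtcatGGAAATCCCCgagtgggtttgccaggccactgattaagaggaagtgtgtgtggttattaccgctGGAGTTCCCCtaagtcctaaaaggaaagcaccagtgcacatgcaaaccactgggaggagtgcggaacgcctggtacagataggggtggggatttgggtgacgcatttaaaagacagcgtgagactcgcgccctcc

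NFKBIA, chr14:35404750-35404999, minus strand: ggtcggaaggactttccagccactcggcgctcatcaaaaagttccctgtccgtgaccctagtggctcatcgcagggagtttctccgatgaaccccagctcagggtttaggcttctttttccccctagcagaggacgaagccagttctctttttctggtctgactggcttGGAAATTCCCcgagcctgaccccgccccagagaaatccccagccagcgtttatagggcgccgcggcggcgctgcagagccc

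TNFAIP3, chr6:137867009-137867258, plus strand: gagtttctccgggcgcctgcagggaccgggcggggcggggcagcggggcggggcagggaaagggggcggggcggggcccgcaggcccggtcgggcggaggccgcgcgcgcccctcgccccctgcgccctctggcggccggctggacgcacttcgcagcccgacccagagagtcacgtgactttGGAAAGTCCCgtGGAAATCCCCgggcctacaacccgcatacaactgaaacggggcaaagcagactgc

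TNF had no consensus match in these 250 bases, which says only that the letters are not in this window. NFKBIA had 1 match, from 81 to 72 bases before its start. TNFAIP3 had a pair of neighbouring matches, which begin 67 and 55 bases before the start. In the NFKB2 window the capitals cover 3 matches, of which the first 2 overlap, since GGGAATTCCC and the reverse complement of GGGGAATTCC share letters. BIRC3 had matches that begin 199 and 135 bases before its start. The NFKB2 window printed is the one with the most matches: that of the first annotated start had none and that of the third had 2. NFKB1 and REL also had 1 window each with a match, and both RELA windows had none. Since decitabine acts on CpG methylation, CpG sites were counted in the same windows. The TNF window held 10, BIRC3 held 11, NFKBIA 15, the NFKB2 window 24 and TNFAIP3 29, against a median of 11 over all windows, with quartiles of 3 and 23. No methylation was measured in the data used here.

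**Figure D1:**
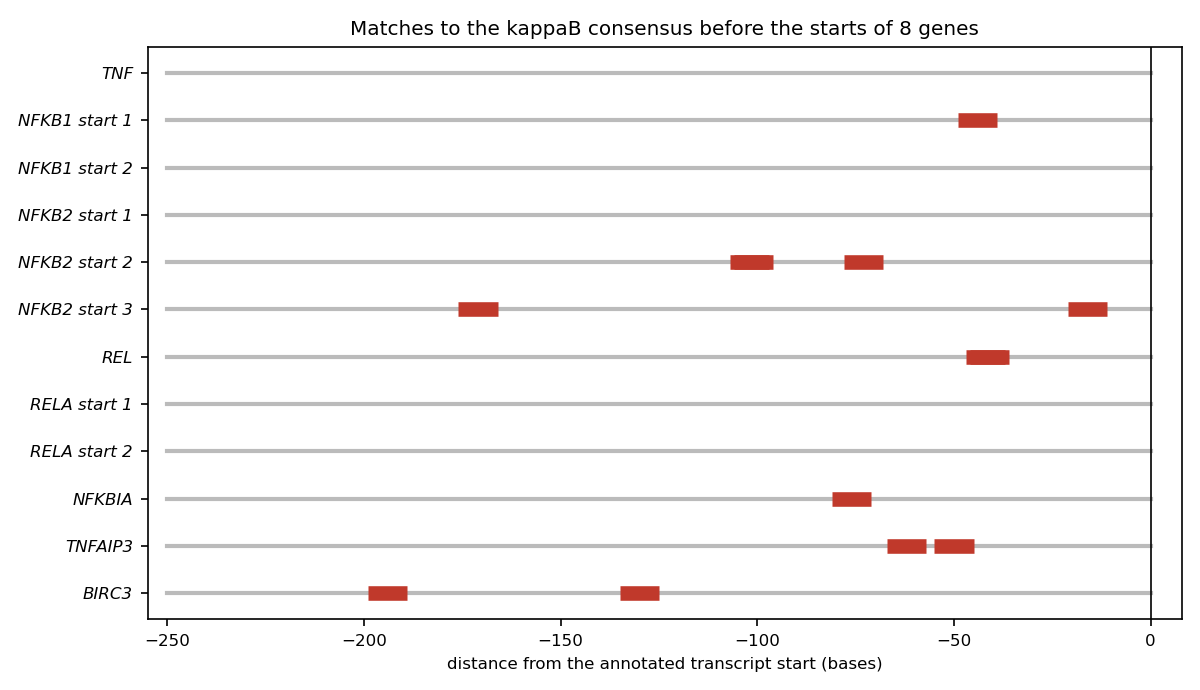
Positions of kappaB consensus matches in the 12 RefSeq windows of 8 genes. The horizontal axis is the distance in bases before the annotated start, each row is 1 window, and each mark is a match; 7 windows hold at least 1 match, and the TNF and RELA rows are empty.

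Values are normalised counts: estimated read counts per gene divided by normalization factors by the authors. Estimated depth per library, in units of 1e+06 reads, ran from 1.97 to 75. The deepest lines were SKM-1 and MOLM-13, at 42.9 to 75, where 1 read was worth 0.279 to 0.488 normalised counts. Replicate 2 of OCI-AML3, MOLM-14 and KG-1, with decitabine and with DMSO, was shallow, at 1.97 to 4.59 in the same units, where 1 read was worth 4.3 to 10.3 normalised counts. Differences were tested with limma on log2(value + 1) over 22168 genes in 1 fit of all 30 libraries, with Benjamini-Hochberg (BH) adjustment over all of them and a threshold of 0.05. A gene is called higher or lower where it passed that threshold. The panel mean is the average of the 5 lines' differences, in which the sister lines MOLM-13 and MOLM-14 count separately.

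All 5 lines carried RNA of blood and myeloid cells. PTPRC, the pan-leukocyte surface phosphatase, was at 3643 to 12169 normalised counts, the myeloid antigen CD33 at 570 to 2346 and the myeloid factor SPI1 at 666 to 2182. Of the same list of 9 myeloid leukaemia markers, LYN (2324 to 14489), CEBPA (505 to 6914) and FLT3 (95.6 to 11083) were also present in every library. MPO (13.7 to 42233), CD34 (1.9 to 31071) and KIT (0 to 2733, at 0 in 3 libraries) ranged down to low values. Of the 9, 3 were called higher and 1 lower in the panel mean, against 12.0% and 7.52% of all genes. The summed level of a list of 12 monocyte-like markers was higher with decitabine in every line. Of 11 tested, 9 were higher in the panel mean and 0 lower, against 12.0% and 7.52% of all genes, with a median log2 change of 0.97. Single lines had fewer called higher: 8 in MOLM-14, 6 in SKM-1 with 1 lower, 6 in KG-1, 5 in OCI-AML3 and 4 in MOLM-13. Of all genes, 3.13% in MOLM-13 to 11.0% in MOLM-14 were called in either direction. Abundant genes such as LYZ (up to 15066) and S100A9 (up to 16734) weigh most in the sums. The summed level of the 12 markers was 43816 to 44840 with decitabine, against 24840 to 26439 with DMSO in SKM-1. It was 18183 to 22223 with decitabine, against 8712 to 9973 with DMSO in OCI-AML3. MOLM-14 had 17141 to 17985 with decitabine and 7885 to 8217 with DMSO. MOLM-13 had 21762 to 22537 with decitabine and 11681 to 12042 with DMSO, and KG-1 had 3457 to 3587 with decitabine and 2378 to 2543 with DMSO. CD14, the defining monocyte marker of that list, never exceeded 5.36 normalised counts and was at 0 in 12 libraries. Mitochondrial transcripts also took a larger mean share with decitabine in every line, from 12.1% ± 0.436 with decitabine against 11.3% ± 0.85 with DMSO in KG-1 to 18.7% ± 0.473 with decitabine against 13.5% ± 0.896 with DMSO in MOLM-13 (SD, n = 3 each). The part of either change in the results that follow was not tested. In these bulk libraries, more cells of a kind and more RNA per cell cannot be told apart.

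Across the panel, TNF, BIRC3, NFKB2 and RELB were higher after decitabine, while the other 6 genes were not called. That is 4 of 10 called higher, against 12.0% of all genes tested, and 0 of 10 lower, against 7.52%. No gene of the 10 was lower at an unadjusted p below 0.05 in limma either, where 11.2% of all genes were. BIRC3 rose by 1.62 ± 0.37 (log2 fold change ± SE; limma, BH-adjusted p = 0.00243) and TNF by 1.45 ± 0.16 (adjusted p = 4.11e-07). NFKB2 rose by 0.76 ± 0.10 (adjusted p = 2.12e-06) and its partner RELB by 0.67 ± 0.11 (adjusted p = 4.29e-05). The classical subunits differed little in this mean: NFKB1 by 0.02 ± 0.10 (limma, adjusted p = 0.924), REL by 0.06 ± 0.04 (adjusted p = 0.378) and RELA by -0.29 ± 0.19 (adjusted p = 0.313). The feedback inhibitors also stayed under the threshold, with NFKBIA at 0.28 ± 0.19 (adjusted p = 0.361), TNFAIP3 at 0.17 ± 0.11 (adjusted p = 0.32) and NFKBIE at 0.07 ± 0.13 (adjusted p = 0.785). The median log2 change was 0.23 over the 10 genes and 0.0627 over all genes tested. Without the 6 shallow libraries, NFKBIA was called too (0.50, adjusted p = 2.66e-05), which makes 5 of 10, where 19.1% of all genes were called higher. In SKM-1 and MOLM-13 alone, the deep lines, 7 of 10 were higher, where 28.1% of all genes were; that subset was chosen after seeing the data.

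**Figure D2:**
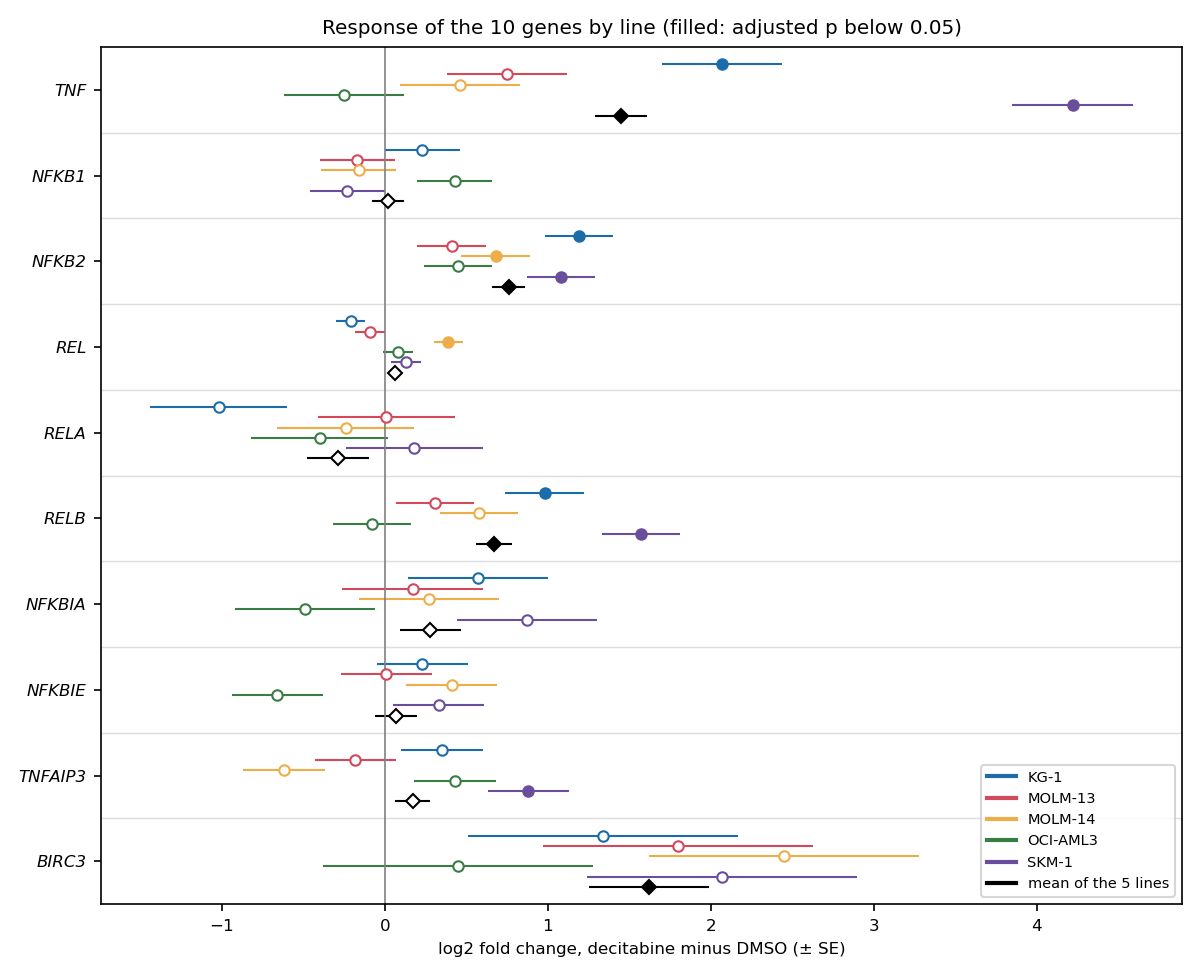
Log2 fold change of decitabine against DMSO (horizontal axis) for the 10 genes (rows) in each of the 5 lines and in the panel mean (diamonds, with bars of ± SE from limma; filled marks passed the threshold). TNF in SKM-1 lies farthest to the right, at 4.22, and NFKB2 and RELB sit above 0 in KG-1, MOLM-13, MOLM-14 and SKM-1.

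Line by line the 10 genes gave different calls. In SKM-1, 4 of 10 were called, against 9.02% of all genes: TNF, NFKB2, RELB and TNFAIP3, all higher. In KG-1, 3 of 10 were called, against 3.78% of all genes: TNF, NFKB2 and RELB, all higher. MOLM-14 gave 2 of 10, NFKB2 and REL, both higher, against 11.0% of all genes. MOLM-13 and OCI-AML3 gave 0 of 10, against 3.13% and 5.37% of all genes. At an unadjusted p below 0.05 in limma, 5 of 10 passed in SKM-1, all higher, against 18.7% of all genes. Under the same rule 5 passed in KG-1, with REL and RELA lower, against 13.9%, and 5 in MOLM-14, with TNFAIP3 lower, against 25.0%. Only BIRC3, higher, passed it in MOLM-13, against 12.6%, and NFKB2, higher, and NFKBIE, lower, in OCI-AML3, against 18.6%. These counts rest on a spread shared by all lines. With each line fitted alone, SKM-1 gave 8 of 10, against 35.8% of all genes, and MOLM-13 gave 3 of 10, against 21.7%. In the same separate fits KG-1 gave 1 of 10 (BIRC3), against 0.509%, and MOLM-14 gave 0 of 10, against 1.37%.

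TNF, on chromosome 6 (GRCh38, chr6:31575567-31578336, plus strand), ran from 0 to 693 normalised counts over the 30 libraries. SKM-1 had 111, 121 and 94.5 normalised counts with decitabine, against 5.11, 3.58 and 6.22 with DMSO. Every decitabine library of SKM-1 was far above every DMSO library. The difference was 4.22 ± 0.37 on the log2 scale, an 18.6-fold change on the log2(value + 1) scale (limma, BH-adjusted p = 7.37e-09). MOLM-13 had 671, 693 and 659 normalised counts with decitabine, against 417, 373 and 411 with DMSO. These did not overlap either, and the log2 difference was 0.75 ± 0.37 (limma, adjusted p = 0.4, and 0.000547 with MOLM-13 fitted alone). In MOLM-14 the values were 381, 565 and 386 with decitabine, against 383, 292 and 288 with DMSO. The MOLM-14 groups overlapped, since 1 decitabine library lay just below the highest DMSO library. OCI-AML3 had 266, 260 and 260 with decitabine, against 270, 359 and 311 with DMSO. Here every decitabine library was below every DMSO library, by a small margin, as for 7.42% of all genes, with a log2 difference of -0.25 ± 0.37 (limma, adjusted p = 0.793).

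In KG-1 TNF was almost absent: 15.4, 8.59 and 4.26 normalised counts with decitabine, against 3.01, 0 and 1.78 with DMSO. These stand for about 19, 2 and 5 reads with decitabine, against about 3, 0 and 3 reads with DMSO. The groups did not overlap, and the log2 difference was 2.07 ± 0.37 (limma, adjusted p = 0.00082), a size that depends on the pseudocount at this level: it was 1.08 with a pseudocount of 5. With KG-1 fitted alone the adjusted p was 0.451. Leaving out SKM-1 altogether brought the panel change of TNF to 0.76 (limma, adjusted p = 0.0127).

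The order of TNF levels under DMSO was MOLM-13, MOLM-14, OCI-AML3, SKM-1 and KG-1. The first 3 did not differ from their neighbours beyond the spread (limma, adjusted p = 0.521 and 0.978). OCI-AML3 lay 5.73 above SKM-1 on the log2 scale (adjusted p = 2e-12), and SKM-1 lay 1.39 above KG-1 (adjusted p = 0.00253). Such differences in level between lines were common, since 50.6% of all genes were called between OCI-AML3 and SKM-1 and 49.2% between KG-1 and SKM-1. After decitabine, SKM-1 averaged 109 ± 13.4 normalised counts, still below the 262 ± 3.71 of OCI-AML3 (SD, n = 3 each).

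**Figure D3:**
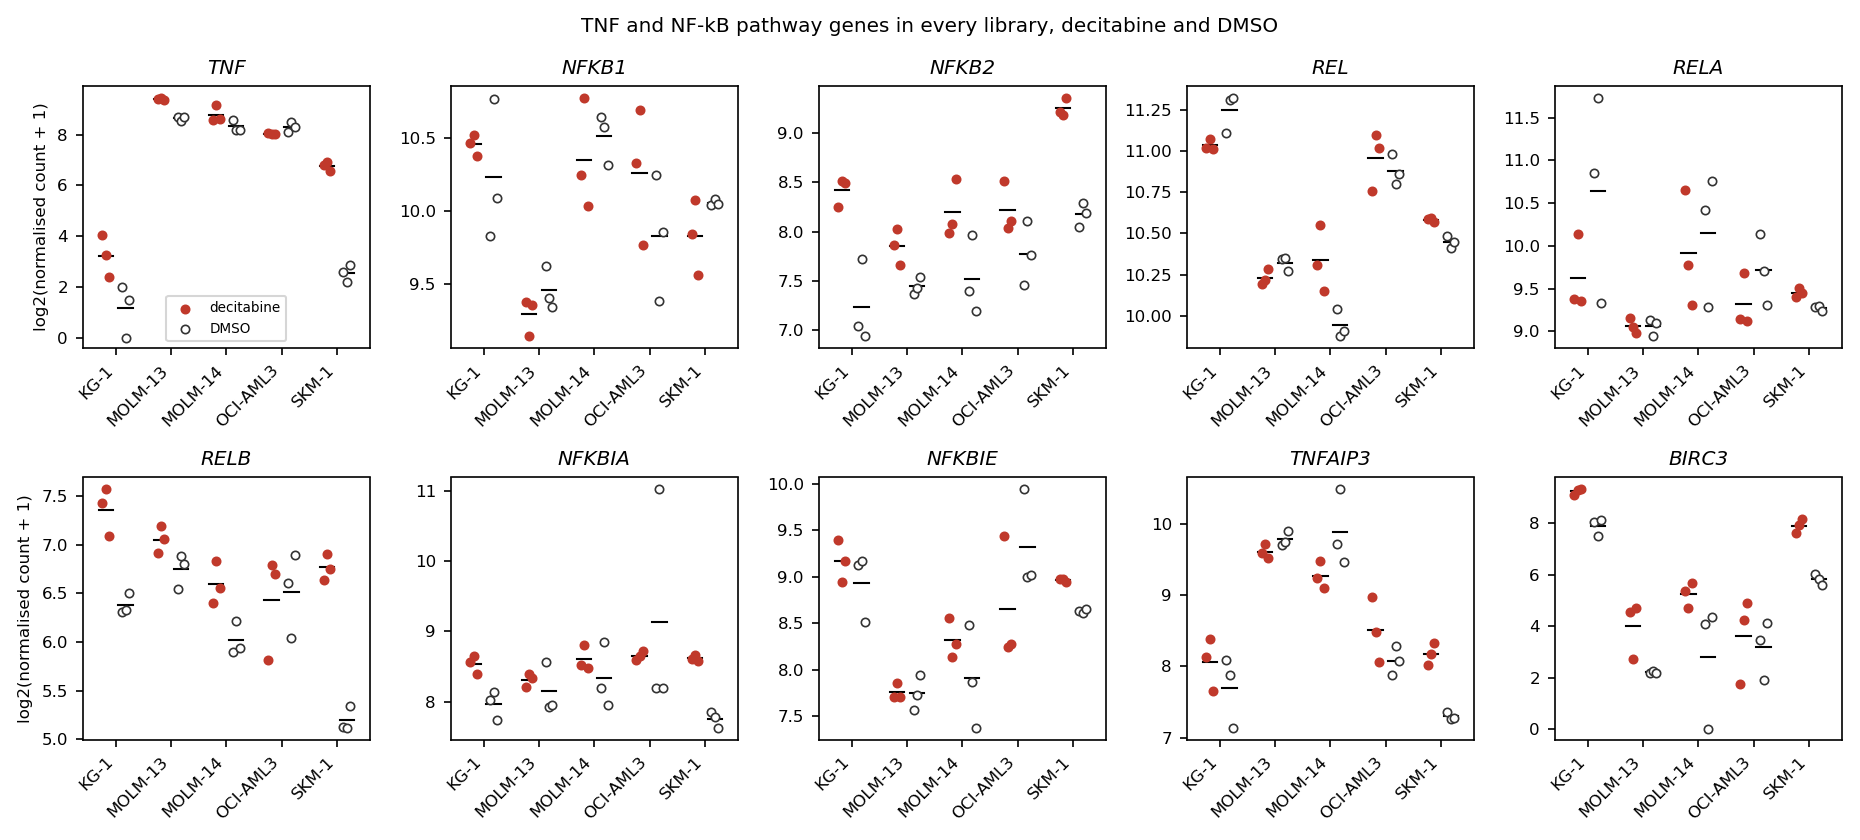
Levels of each of the 10 genes in all 30 libraries, as log2(normalised count + 1) on axes that differ between genes, with decitabine left of DMSO in each of the 5 lines; points are libraries and short lines are group means. TNF spans from 0 normalised counts in a KG-1 DMSO library to 693 in a MOLM-13 decitabine library, and BIRC3 is high in KG-1 and SKM-1.

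BIRC3 (chr11:102317450-102339403, plus strand) had its highest counts in KG-1, the line with the least TNF. KG-1 had 553, 623 and 636 normalised counts with decitabine, against 265, 183 and 276 with DMSO. SKM-1 had 197, 242 and 284 with decitabine, against 65.2, 56.3 and 48.3 with DMSO. Both lines had every decitabine library above every DMSO library. MOLM-13 had 22.8, 5.66 and 25.5 with decitabine, against 3.56, 3.77 and 3.53 with DMSO. MOLM-14 had 40.6, 25.3 and 50.9 with decitabine, against 15.9, 0 and 19.5 with DMSO. These did not overlap, though the 25.3 and the 0 of the shallow MOLM-14 libraries stand for about 2 and 0 reads. OCI-AML3 had 2.34, 18.2 and 28.6 with decitabine, against 10.1, 2.81 and 16.5 with DMSO, and there the groups overlapped.

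The log2 difference of BIRC3 was 2.45 ± 0.83 in MOLM-14 (limma, BH-adjusted p = 0.0583), 2.07 ± 0.83 in SKM-1 (adjusted p = 0.143) and 1.34 ± 0.83 in KG-1 (adjusted p = 0.53). No single line passed in that shared fit, though the MOLM-14 value lay near the threshold. The calls in MOLM-14 and SKM-1 depended on the setting. MOLM-14 passed with a pseudocount of 5 (adjusted p = 0.0405), and it passed when MOLM-14 DMSO replicate 1 (0.0279) or 3 (0.0182), OCI-AML3 decitabine replicate 1 (0.0343) or OCI-AML3 DMSO replicate 2 (0.0486) was left out. Its log2 difference was 3.23 without MOLM-14 DMSO replicate 3 and 1.05 without the shallow DMSO replicate 2 that is at 0 (limma, adjusted p = 0.41). SKM-1 passed with a pseudocount of 5 (0.0118), with library weights (2.62e-05), without the 6 shallow libraries (0.012) and without MOLM-14 DMSO replicate 2 alone (0.0279). BIRC3 was called in SKM-1 (adjusted p = 4.94e-05), in MOLM-13 (adjusted p = 0.0364) and in KG-1 (adjusted p = 0.0351) when each line was fitted alone. Without the 6 shallow libraries the panel change was 1.17 (limma, adjusted p = 0.00444). Under DMSO, KG-1 lay 2.06 above SKM-1 on the log2 scale (adjusted p = 0.0426), and SKM-1 lay 2.66 above OCI-AML3 (adjusted p = 0.00951). OCI-AML3, MOLM-14 and MOLM-13 did not differ from their neighbours beyond the spread.

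NFKB2 (chr10:102394110-102402529, plus strand), the precursor of the p52 subunit, was the gene called in most lines. SKM-1 had 593, 581 and 655 normalised counts with decitabine, against 264, 312 and 292 with DMSO. KG-1 had 303, 364 and 361 with decitabine, against 131, 211 and 122 with DMSO. NFKB2 rose in SKM-1 by 1.08 ± 0.21 (log2 fold change ± SE; limma, BH-adjusted p = 0.00118). It rose in KG-1 by 1.19 ± 0.21 (limma, adjusted p = 0.00102, and 0.112 with KG-1 fitted alone). The decitabine libraries were all above the DMSO libraries in both lines. MOLM-14 had 253, 269 and 371 with decitabine, against 168, 249 and 146 with DMSO. MOLM-13 had 233, 260 and 202 with decitabine, against 164, 171 and 186 with DMSO. OCI-AML3 had 364, 262 and 276 with decitabine, against 175, 275 and 216 with DMSO. The MOLM-14 and MOLM-13 groups did not overlap, and those of OCI-AML3 did. NFKB2 rose in MOLM-14 by 0.68 ± 0.21 (limma, adjusted p = 0.0407), a call lost without any of 4 MOLM-14 libraries or 1 SKM-1 library (adjusted p of 0.0599 without MOLM-14 decitabine replicate 2, 0.158 without decitabine replicate 3, 0.104 without DMSO replicate 1, 0.155 without DMSO replicate 3 and 0.0502 without SKM-1 DMSO replicate 3). In OCI-AML3 it stood at 0.45 ± 0.21 (adjusted p = 0.263) and at 0.70 without the shallow libraries (adjusted p = 0.0191).

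RELB (chr19:45001430-45038198, plus strand), which pairs with p52, moved in much the same lines. SKM-1 had 98.8, 119 and 107 normalised counts with decitabine, against 33.9, 33.8 and 39.7 with DMSO. KG-1 had 171, 189 and 135 with decitabine, against 78.2, 79.6 and 89.9 with DMSO. RELB rose by 1.57 ± 0.24 in SKM-1 (limma, BH-adjusted p = 4.03e-05) and by 0.98 ± 0.24 in KG-1 (adjusted p = 0.0152). The KG-1 call was lost without KG-1 decitabine replicate 1 (adjusted p = 0.0557), decitabine replicate 2 (0.0828) or DMSO replicate 2 (0.053), and with KG-1 fitted alone (0.145). MOLM-13 had 120, 145 and 132 with decitabine, against 92.7, 117 and 111 with DMSO. MOLM-14 had 83.4, 113 and 93.2 with decitabine, against 58.6, 73.6 and 60.4 with DMSO. Neither pair of groups overlapped, and neither was called. OCI-AML3 had 55.4, 110 and 103 with decitabine, against 96.4, 65.1 and 118 with DMSO, which overlapped. Under DMSO, RELB was lowest in SKM-1, 0.82 below MOLM-14 on the log2 scale (limma, adjusted p = 0.00521, where 50.4% of all genes were called). NFKB2, RELB and BIRC3 each had every decitabine library above every DMSO library in 4 lines, the exception being OCI-AML3. These 4 include the sister lines MOLM-13 and MOLM-14. Of all genes tested, 2.30% were above in 4 or more lines. The share above in a single line was 10.2% in KG-1, 22.8% in MOLM-13, 11.2% in MOLM-14, 10.1% in OCI-AML3 and 29.2% in SKM-1.

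REL (chr2:60881521-60931610, plus strand), the subunit c-Rel, had the smallest standard error of the 10 genes in the panel mean. Another annotated transcript, AC010733.2, and the snRNA RNU4-51P overlap it on the same strand, so that reads could be split between them. MOLM-14 had 1267, 1499 and 1137 normalised counts with decitabine, against 1054, 940 and 962 with DMSO. REL rose there by 0.39 ± 0.09 (limma, BH-adjusted p = 0.00753). The change was 0.25 once the 6 shallow libraries were left out (adjusted p = 0.0741). Leaving out MOLM-14 decitabine replicate 2 alone also lost the call (adjusted p = 0.0624). KG-1 had 2074, 2150 and 2061 with decitabine, against 2209, 2532 and 2556 with DMSO. These KG-1 groups were apart in the other direction, as were those of 6.44% of all genes, with a log2 difference of -0.21 ± 0.09 (limma, adjusted p = 0.297). The DMSO level of REL fell into a clear order, with KG-1 0.37 above OCI-AML3 (adjusted p = 0.00251), OCI-AML3 0.43 above SKM-1 (adjusted p = 0.00046) and MOLM-13 0.38 above MOLM-14 (adjusted p = 0.00256). SKM-1 and MOLM-13 did not differ beyond the spread. Of all genes, 43.4% were called between KG-1 and OCI-AML3 and 36.2% between MOLM-13 and MOLM-14.

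NFKB1 (chr4:102501329-102617302, plus strand), the precursor of p50, overlapped between treatments in all 5 lines. It ran from 565 to 1752 normalised counts with a median of 1079 over the 15 decitabine libraries, against 648 to 1746 with a median of 1057 over the 15 DMSO libraries. The largest log2 difference in a line was 0.43 ± 0.23 in OCI-AML3 (limma, adjusted p = 0.335). RELA (chr11:65653596-65663094, minus strand), the main activating subunit p65, is overlapped by AP001362.2 on the opposite strand, and whether reads were counted by strand is not given in the sources used here. KG-1 had 665, 1124 and 653 normalised counts of RELA with decitabine, against 1854, 3397 and 642 with DMSO. A pair of the KG-1 DMSO libraries stood far above the rest, and the third was the lowest of the 6. The log2 difference was -1.02 ± 0.42 (limma, adjusted p = 0.239). Without that lowest library, DMSO replicate 3, RELA was called lower in KG-1, at -1.67 (limma, adjusted p = 0.00736), and in the panel mean, at -0.43 (adjusted p = 0.0477). MOLM-14 also had scattered RELA values, at 1615, 879 and 632 with decitabine, against 1369, 621 and 1733 with DMSO. In the deep lines RELA was steady, at 506 to 571 with decitabine against 492 to 560 with DMSO in MOLM-13. SKM-1 had 675, 726 and 699 with decitabine, against 625, 626 and 604 with DMSO, groups that did not overlap.

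NFKBIA (chr14:35401511-35404749, minus strand), the first feedback inhibitor, had 1 library far from the rest. OCI-AML3 had 385, 399 and 420 normalised counts with decitabine, against 291, 2083 and 292 with DMSO. The 2083 came from the shallow DMSO replicate 2, where it stands for about 301 reads. With it the OCI-AML3 difference was -0.49 ± 0.43 (limma, BH-adjusted p = 0.599). It was 0.46 when that library was left out, and the panel change was then 0.47 (limma, adjusted p = 0.000245). SKM-1 had 391, 405 and 380 with decitabine, against 229, 219 and 197 with DMSO. KG-1 had 376, 400 and 335 with decitabine, against 260, 280 and 213 with DMSO. Both were fully apart, with log2 differences of 0.87 ± 0.43 in SKM-1 (limma, adjusted p = 0.277) and 0.57 ± 0.43 in KG-1 (adjusted p = 0.642). Without the 6 shallow libraries the adjusted p was 0.000141 in SKM-1 and 0.0458 in KG-1, and without OCI-AML3 DMSO replicate 2 alone it was 0.00221 in SKM-1. In comparison, MOLM-14 had 366, 449 and 355 with decitabine, against 291, 461 and 247 with DMSO, and MOLM-13 had 294, 337 and 323 with decitabine, against 378, 242 and 246 with DMSO. In both of these lines the groups overlapped.

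TNFAIP3 (chr6:137867188-137883312, plus strand), the deubiquitinase A20, is overlapped by the antisense gene AL357060.1, with the same doubt over strand. SKM-1 had 260, 287 and 320 normalised counts with decitabine, against 163, 153 and 154 with DMSO. It rose there by 0.88 ± 0.25 (limma, BH-adjusted p = 0.0232). The call was lost without any of 5 single SKM-1 libraries: decitabine replicate 2 (adjusted p = 0.0708) or 3 (0.114), or DMSO replicate 1 (0.0559), 2 (0.0783) or 3 (0.0741). With SKM-1 fitted alone the adjusted p was 0.000279. MOLM-14 had 608, 717 and 549 with decitabine, against 846, 1440 and 710 with DMSO. The highest MOLM-14 decitabine library lay just above the lowest DMSO library, and the difference was -0.62 ± 0.25 (limma, adjusted p = 0.115). Without MOLM-14 DMSO replicate 3 it was called lower, at -0.83 (adjusted p = 0.0439). MOLM-13 had 774, 847 and 735 with decitabine, against 838, 865 and 962 with DMSO, which overlapped. Under DMSO, TNFAIP3 was higher in MOLM-14 and MOLM-13 than in the other lines, with MOLM-13 1.71 above OCI-AML3 on the log2 scale (limma, adjusted p = 2.8e-06, where 47.9% of all genes were called). OCI-AML3, KG-1 and SKM-1 did not differ from their neighbours beyond the spread. OCI-AML3 had 503, 359 and 266 with decitabine, against 234, 311 and 270 with DMSO, and KG-1 had 279, 333 and 201 with decitabine, against 272, 234 and 140 with DMSO. Both of these overlapped.

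NFKBIE (chr6:44258166-44265788, minus strand), the inhibitor IkB-epsilon, was called in no line in the main fit of all 30 libraries, which took no replicates as pairs. It ran from 207 to 693 normalised counts with a median of 375 over the decitabine libraries, against 165 to 979 with a median of 389 over the DMSO libraries. SKM-1 had 500, 501 and 490 normalised counts with decitabine, against 394, 389 and 400 with DMSO. These were fully apart, with a log2 difference of 0.33 ± 0.28 (limma, BH-adjusted p = 0.685, and 0.0031 with SKM-1 fitted alone). OCI-AML3 had 693, 301 and 308 with decitabine, against 979, 509 and 515 with DMSO. In that line replicate 1 was the highest of its group in both arms, the groups overlapped, and the difference was -0.66 ± 0.28 (limma, adjusted p = 0.199). Each decitabine library was below the DMSO library of the same number. With same-numbered replicates fitted as blocks NFKBIE was called lower there (limma, adjusted p = 0.0359), which depends on taking them as pairs. Without decitabine replicate 1 NFKBIE was called lower there, at -1.06 (limma, adjusted p = 0.0192), and its response then differed between lines (F-test, adjusted p = 0.0368).

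Whether lines responded differently was tested directly. The response differed between lines for TNF (limma F-test, BH-adjusted p = 8.73e-06), RELB (0.0113), REL (0.0252) and TNFAIP3 (0.036), which is 4 of 10, against 9.46% of all genes. For TNF, SKM-1 responded more than each of the other lines: by 4.47 more than OCI-AML3 on the log2 scale (limma, adjusted p = 3.51e-06), by 3.76 more than MOLM-14 (3.13e-05), by 3.47 more than MOLM-13 (0.000109) and by 2.15 more than KG-1 (0.0154). KG-1 responded by 2.32 more than OCI-AML3 (adjusted p = 0.0137). Of all genes, 3.75%, 4.02%, 3.02% and 3.98% were called in those 4 tests against SKM-1, and 2.12% in the last. The comparisons that involve KG-1 rest on about 19, 2 and 5 TNF reads with decitabine, against about 3, 0 and 3 with DMSO. Their size depends on the pseudocount. With a pseudocount of 5 the TNF change was 1.08 in KG-1, -0.25 in OCI-AML3 and 3.51 in SKM-1. The pairs of lines were not tested at that pseudocount. RELB responded more in SKM-1 than in OCI-AML3, by 1.65 (limma, adjusted p = 0.00338), and than in MOLM-13, by 1.26 (0.0362). TNFAIP3 responded more in SKM-1 than in MOLM-14, by 1.49 (adjusted p = 0.0126). REL responded more in MOLM-14 than in KG-1, by 0.60 (adjusted p = 0.00838), a test that called 4.09% of all genes. Without SKM-1, 0 of the 10 genes differed between the remaining lines, and TNF had an adjusted p of 0.0752. The share of all genes in that fit is not given here. The TNFAIP3 result was lost in 14 of 30 fits that left out 1 library each, with an adjusted p of up to 0.0809. The REL result was lost without MOLM-14 DMSO replicate 2 (adjusted p = 0.0522) and without the 6 shallow libraries (0.0554), where NFKB2 passed (limma F-test, adjusted p = 0.0324). NFKB2, BIRC3, NFKBIA, NFKBIE, NFKB1 and RELA were not called in the test with all 30 libraries, which does not show that the lines responded alike.

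Markers of other lineages also moved with treatment, in several lines. In SKM-1, where TNF changed most, 4 of 6 T-like and 3 of 5 epithelial-like markers were called higher, and in KG-1 2 of 6 and 1 of 5. Of all genes, 9.02% in SKM-1 and 3.78% in KG-1 were called in either direction. No T-like marker was called in MOLM-13, MOLM-14 or OCI-AML3. No epithelial-like marker was called in MOLM-13 or MOLM-14, and 1 of 5 was higher in OCI-AML3, against 5.37% of all genes in either direction. The summed T-like level was 78.6 to 83.7 normalised counts with decitabine, against 4.24 to 11.8 with DMSO in SKM-1, and 377 to 529 with decitabine, against 223 to 293 with DMSO in KG-1. The summed epithelial-like level was 1236 to 1300 with decitabine, against 501 to 548 with DMSO in SKM-1, and 298 to 435 with decitabine, against 18.4 to 51.2 with DMSO in KG-1. In OCI-AML3 the fibroblast-like sum was 272 to 344 with decitabine, against 82.6 to 144 with DMSO. Of 5 B-like markers 1 was called higher in the panel mean, against 12.0% of all genes, and none in any single line (limma). Their sum in MOLM-14 was 558 to 4069 with decitabine, against 1015 to 1199 with DMSO. Within these lists single markers ranged widely: MS4A1 was at 0 in 25 of 30 libraries and COL3A1 in 26, while PAX5 reached 4065, COL1A2 272 and CD3E 265. The part of these markers in the TNF change was not tested.

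The 3 protein-coding genes whose level followed TNF most closely over the 10 group means of log2(value + 1) were AXL, a receptor tyrosine kinase (r = 0.976), RAB3D, a small GTPase of secretory vesicles (r = 0.973), and XAGE1A, a cancer-testis gene of a family with near-identical copies whose counts are therefore uncertain (r = 0.968). The 10 means come from 5 lines, so the points are not independent and this is a description. Among the other 9 genes r with TNF ran from -0.745 for BIRC3 to 0.787 for TNFAIP3. AXL was called higher in SKM-1, by 3.48 ± 0.44 (limma, adjusted p = 3.57e-06), and in KG-1, by 1.69 ± 0.44 (adjusted p = 0.0259).

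The rest of the pathway was read from 6 lists, chosen with earlier results of these data known, so their shares are a description only. They hold 79 genes in all, 76 of them tested. Of these, 29 (38.2%, against 12.0% of all genes) were called higher and 1 lower in the panel mean, with a median log2 change of 0.22. Of known NF-kB target genes 15 of 24 (62.5%) were higher and 0 lower, with a median of 0.44. They included the matrix protease MMP9 (1.66 ± 0.33, limma, BH-adjusted p = 0.00055), and the chemokines CCL2 (1.43 ± 0.21, adjusted p = 1.94e-05) and CCL3 (1.32 ± 0.35, adjusted p = 0.00886). Without SKM-1, 8 of 24 were higher, and MMP9 (limma, adjusted p = 0.054) and CCL3 (adjusted p = 0.122) were not among them. The share of all genes called in that fit is not given here, so the drop is no result about these targets in particular. CCL3 was also lost without OCI-AML3 (limma, adjusted p = 0.118) and under quantile normalization (0.0501). Several of these targets are also products of monocytes, whose markers moved in the same direction. The part of that marker change in the rise of these targets was not tested.

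Of IkB proteins other than NFKBIA and NFKBIE 4 of 5 were higher, with a median of 0.67. NFKBIZ, a nuclear IkB protein, rose by 0.72 ± 0.18 (limma, BH-adjusted p = 0.00484). BCL3, a nuclear partner of p50 and p52, rose by 0.72 ± 0.17 (adjusted p = 0.00324), and NFKBID by 0.67 ± 0.13 (adjusted p = 0.000334). That count was 2 of 5 without SKM-1 and under quantile normalization. The shares of all genes called in those fits are not given here, so the drop is no result about these genes in particular. Without SKM-1, BCL3 was among those lost (adjusted p = 0.174), and under quantile normalization too (0.0636). Of the adaptors and ubiquitin ligases 2 of 16 (12.5%) were higher, a share close to the 12.0% of all genes, and 1 was lower, against 7.52%, with a median of 0.02. The adaptor TRAF1 rose by 0.86 ± 0.12 (limma, adjusted p = 6.33e-06), and the kinase RIPK1 by 0.28 ± 0.06 (adjusted p = 0.00257, and 0.0573 without SKM-1). The kinase MAP3K7 (TAK1) fell by 0.13 on the log2 scale (SE 0.04, limma, adjusted p = 0.0344). Its call was lost under quantile normalization (0.281), without SKM-1 (0.2) and in 12 of 30 fits that left out 1 library each (up to 0.0611). Of the IkB kinases 1 of 6 was higher, IKBKE (0.31 ± 0.09, adjusted p = 0.0168), with a median of 0.30, and 1 to 3 were higher when 1 library at a time was left out.

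Among ligands and receptors of the TNF superfamily 4 of 11 were higher, with a median of 0.32. The death ligand TNFSF10 (TRAIL) rose by 0.63 ± 0.07 (limma, BH-adjusted p = 6.39e-07), the BAFF receptor TNFRSF13C by 0.37 ± 0.11 (adjusted p = 0.0136, but 0.159 under quantile normalization and 0.0831 without SKM-1) and TNFSF14 by 0.35 ± 0.05 (adjusted p = 4.13e-05). TNFSF14 stood at 0.06 without OCI-AML3 (adjusted p = 0.499) and at -0.30 in SKM-1 and MOLM-13 alone (adjusted p = 0.000426). The receptor that transmits most TNF signals, TNFRSF1A, stood at 0.01 ± 0.08 (adjusted p = 0.936). Of 14 other negative regulators 3 (21.4%) were higher, with a median of 0.16: the RNase ZC3H12A (0.41 ± 0.10, adjusted p = 0.00303), the deubiquitinase CYLD (0.31 ± 0.07, adjusted p = 0.00163) and the mRNA decay factor ZFP36 (0.26 ± 0.08, adjusted p = 0.0214). ZC3H12A (adjusted p = 0.114) and ZFP36 (0.0593) were not called under quantile normalization, nor were CYLD (0.0887) and ZFP36 (0.226) without SKM-1. LTA and TNFAIP6 were under the filter, and IL6 was listed at 0 in all 30 libraries.

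**Figure D4:**
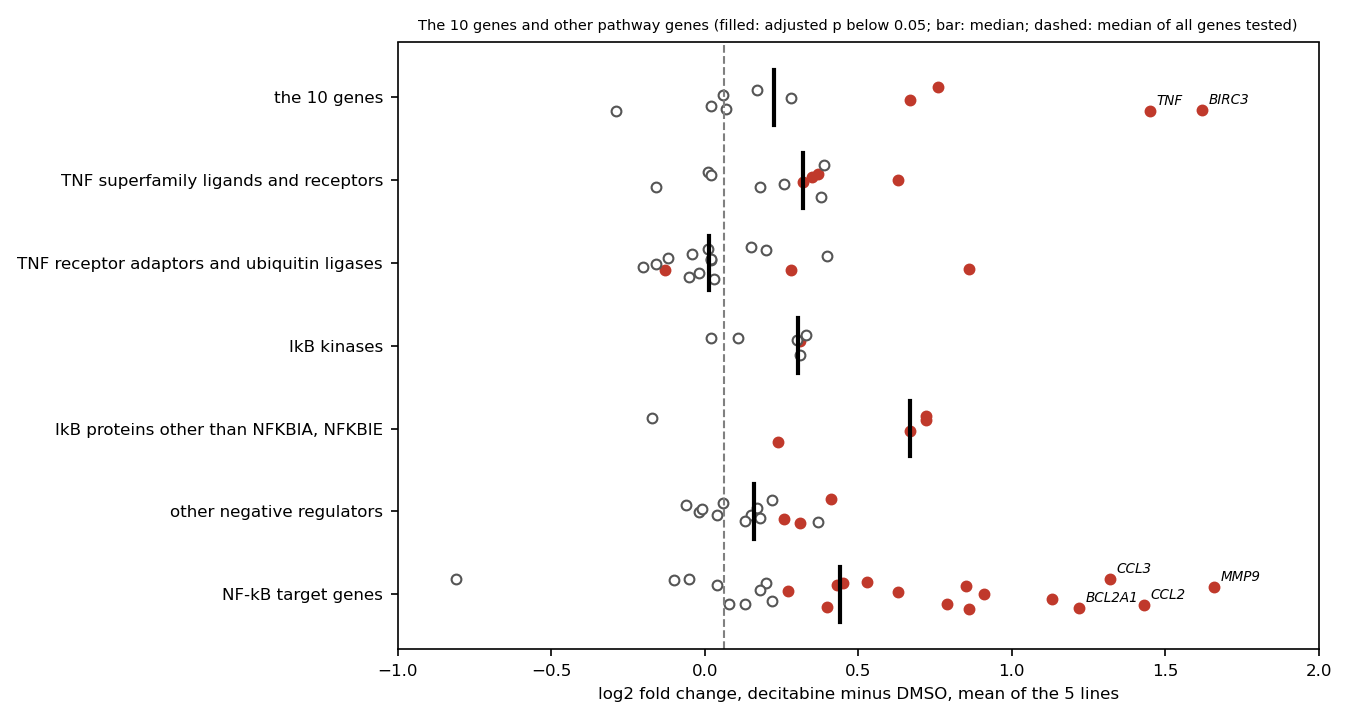
Log2 fold change in the panel mean (horizontal axis) of each tested gene of the 10 genes and of the 6 pathway lists (rows), with called genes filled, list medians as vertical bars and the median of all genes tested as a dashed line. NF-kB targets reach 1.66 at MMP9 and the adaptors centre near 0.

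By line, the 76 genes gave 11 higher and 2 lower in SKM-1 (17.1% called, against 9.02% of all genes) and 10 higher and 0 lower in OCI-AML3 (13.2%, against 5.37%). MOLM-14 gave 17 higher and 1 lower (23.7%, against 11.0%), MOLM-13 gave 5 and 0 (6.58%, against 3.13%), and KG-1 gave 7 and 2 (11.8%, against 3.78%). OCI-AML3, where TNF was not higher, had CCL3 up by 3.08 ± 0.79 (limma, BH-adjusted p = 0.0201) and MMP9 by 2.75 ± 0.73 (adjusted p = 0.0248). SKM-1 had MMP9 up by 3.23 ± 0.73 (adjusted p = 0.00412) and the cytokine IL1B by 2.38 ± 0.28 (adjusted p = 1.53e-06), while TNFSF14 fell by 0.72 (SE 0.12, adjusted p = 0.000165) and IRAK3, a brake on interleukin-1 receptor signalling, by 0.27 (SE 0.08, adjusted p = 0.0341). In MOLM-13, IL1B rose by 1.47 ± 0.28 (limma, adjusted p = 0.00365) and NFKBID by 1.35 ± 0.28 (adjusted p = 0.00678). In MOLM-14, BCL3 rose by 1.90 ± 0.38 (adjusted p = 0.00162) and CCL2 by 1.88 ± 0.47 (adjusted p = 0.0103), and the adaptor TRAF3 fell by 0.49 (SE 0.14, adjusted p = 0.0202). In KG-1, TRAF1 rose by 1.15 ± 0.26 (limma, adjusted p = 0.0102) and the lymphotoxin receptor LTBR by 0.90 ± 0.14 (adjusted p = 0.000252), while the receptor CD40 fell by 1.46 (SE 0.38, adjusted p = 0.0274) and the factor IRF1 by 0.47 (SE 0.10, adjusted p = 0.00638). With each line fitted alone, the genes named here in KG-1 and MOLM-14, and CCL3 in OCI-AML3, no longer passed (limma, adjusted p from 0.135 for LTBR to 0.601 for CD40). Several of these calls also rested on single libraries. In OCI-AML3, CCL3 was lost without decitabine replicate 2 (limma, adjusted p = 0.101) or 3 (0.0544), or DMSO replicate 1 (0.0683) or 2 (0.0799). MMP9 was lost there without decitabine replicate 1 (0.0573) or 2 (0.0742), or DMSO replicate 1 (0.0527) or 2 (0.0898). IRAK3 in SKM-1 was lost without decitabine replicate 1 (limma, adjusted p = 0.0554), 2 (0.105) or 3 (0.152), or DMSO replicate 1 (0.192) or 2 (0.0799). NFKBID in MOLM-13 was lost without DMSO replicate 1 (0.0527). In MOLM-14, CCL2 was lost without decitabine replicate 2 (limma, adjusted p = 0.0621) or DMSO replicate 2 (0.0746), and TRAF3 without decitabine replicate 2 (0.0795) or 3 (0.071) or DMSO replicate 2 (0.129). In KG-1, TRAF1 was lost without decitabine replicate 2 (0.0681), and CD40 without decitabine replicate 1 (0.104) or 2 (0.0703) or DMSO replicate 2 (0.249).

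Levels of different genes can be set side by side per kilobase of annotated exons. In MOLM-13, TNF had 402 normalised counts per kilobase with decitabine, against 239 with DMSO, and TNFAIP3 had 155 with decitabine, against 176 with DMSO. The cytokine thus stood above its regulator in both arms there, as it did in OCI-AML3 (TNF 156 and 187, TNFAIP3 74.4 and 53.8). In KG-1 TNFAIP3 stood above TNF in both arms (53.7 and 42.6, against 5.62 and 0.952). With DMSO only, TNFAIP3 was also above TNF in SKM-1 (31.0 against 2.96). In MOLM-14 the DMSO means were close, at 198 for TNFAIP3 and 191 for TNF. The TNFAIP3 mean there includes 1440 normalised counts in the shallow replicate 2, against 846 and 710 in the other DMSO libraries. No order is therefore read from the MOLM-14 DMSO means. In SKM-1, NFKBIE had 193 with decitabine, against 153 with DMSO, NFKBIA had 165 with decitabine, against 90.5 with DMSO, NFKB2 had 136 with decitabine, against 64.5 with DMSO, and TNF had 64.9 with decitabine, against 2.96 with DMSO.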

How the data were processed

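RNA was sequenced as single-end reads of 50 bases from stranded total RNA libraries, per the labels' protocols. The deposited values are 1 normalised signal for each gene in each library; the authors' table name describes them as estimated counts after DESeq2 normalization. Salmon 1.2.1, STAR, featureCounts, DESeq2, limma and hg38 are listed, without roles, per the submitters' processing notes. Whole reads could not be recovered, so no count model was run here; depth was estimated from the step of low values and limits the precision of each library. Columns were matched to 30 of 42 labelled libraries by line, treatment letter and replicate number; 12 columns of no labelled sample were not used. MOLM-14 is named in the labels and columns but not in the design text. Coordinates are from GENCODE 29 (58064 identifiers matched).

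Genes at 10 or more in at least 3 libraries were tested with limma 3.58.1 (R 4.3.3, statmod 1.5.0) on log2(value + 1), with 10 group means, 20 residual degrees of freedom, trend and robust estimation, and BH adjustment over 22168 genes within each contrast. The pipeline was tested on simulated data. Alternatives covered the pseudocount, filter, scaling, library weights, replicate block, depth, lines and single libraries. All 10 genes are named, then up to 3 called genes per direction of each list, up to 2 per direction and line, and 3 genes most like TNF. The genes and lists were chosen with earlier results of these data known.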

Additional observations from a re-analysis of the deposited data

Results flagged for a closer look

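The response to decitabine differed between the 5 lines for 4 of the 10 genes in limma's F-test, with BH adjustment over all genes: TNF (adjusted p = 8.73e-06), RELB (0.0113), REL (0.0252) and TNFAIP3 (0.036). For TNF the line differences ran from -0.25 in OCI-AML3 to 4.22 in SKM-1 on the log2 scale. For RELB they ran from -0.08 in OCI-AML3 to 1.57 in SKM-1, for REL from -0.21 in KG-1 to 0.39 in MOLM-14, and for TNFAIP3 from -0.62 in MOLM-14 to 0.88 in SKM-1. Groups of 3 libraries are too small for a test of single outlying libraries.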

How the results depend on the processing

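TNF, NFKB2, RELB and BIRC3 stayed higher in the panel mean under every alternative run. With each line fitted alone, 1 of the 10 genes was called in KG-1, 3 in MOLM-13, 0 in MOLM-14 and 8 in SKM-1. Library weights gave 3 in MOLM-13 and 7 in SKM-1. Without the 6 shallow libraries 1 gene each was called in MOLM-13, MOLM-14 and OCI-AML3, and MOLM-14 also gave 1 without a filter and under quantile normalization. SKM-1 and MOLM-13 alone, added after seeing the data, gave 7 higher in the mean. Genes whose response differed between lines numbered 2 without MOLM-13, 2 without MOLM-14 and 0 without SKM-1. Shares of all genes are not given here for library weights or for fits without a line. Nor are they given for single lines without the shallow libraries, without a filter or under quantile normalization. Those counts are therefore no result about the 10 genes in particular. Leaving out 1 library at a time, 0 to 3 genes were called in MOLM-14, 0 to 1 in OCI-AML3, 0 to 1 lower in the panel mean (RELA, without KG-1 DMSO replicate 3), and 2 to 5 differed between lines.

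Sign changes were all in values that were not called, TNFSF14 apart (-0.30 in SKM-1 and MOLM-13 alone). On the log2 scale NFKB1 in the panel mean was -0.02 with weights, -0.06 without the shallow libraries, -0.03 without KG-1, -0.08 without OCI-AML3 and -0.20 in SKM-1 and MOLM-13 alone, where RELA was 0.09. NFKBIE in MOLM-13 was -0.08 under quantile normalization and 0.00 with weights. NFKBIA in OCI-AML3 was 0.20 with weights and 0.46 without the shallow libraries, where NFKB1, REL and BIRC3 in OCI-AML3 were 0.00, -0.03 and -0.49. Without MOLM-14, REL and NFKBIE in the panel mean were -0.02 each, and without SKM-1 NFKBIE and TNFAIP3 were 0.00 each. Single libraries moved NFKB1 from -0.02 to 0.07 and NFKBIE from -0.01 to 0.13 in the panel mean, RELA from -0.05 to 0.05 and NFKBIE from -0.07 to 0.11 in MOLM-13, RELA from -0.67 to 0.07 in MOLM-14, and in OCI-AML3 NFKBIA from -0.96 to 0.46, BIRC3 from -0.17 to 1.40 and RELB from -0.32 to 0.23. The cause was not tested.

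Replicate numbers were shared between arms, and the main fit did not take them as pairs. Only 6 of 15 same-numbered pairs correlated above 0.1 (-0.0225 to 0.153), while 12 of 15 matched best with their own number. The exceptions were replicates 1 and 3 of MOLM-13 and replicate 1 of SKM-1. Every replicate of OCI-AML3, KG-1 and MOLM-14 matched best with its own number (r from 0.0703 to 0.153). Pairing within those lines was not tested further, so calls that change with the replicate block depend on that choice. With the replicate block 1 gene was called in OCI-AML3 (NFKBIE, -0.66, limma, adjusted p = 0.0359), BIRC3 passed in MOLM-14 (0.0446) and NFKB2 did not (0.0825), and between lines NFKBIE passed (0.0438) and REL did not (0.0796). Depth limits TNF in KG-1 and BIRC3 in OCI-AML3 and MOLM-14, which rest on a few reads in the shallow libraries.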
